A study of Mus musculus with 90 samples.

Results

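The sarcoplasmic reticulum (SR) calcium handling genes followed here are 10 of the 55011 gene symbols of the count table, and all 10 were found there by name. They are the release channels Ryr1 and Ryr2 with their anchor Trdn, the pumps Atp2a1 and Atp2a2, the pump inhibitors Sln and Pln, the store proteins Casq1 and Casq2, and the soluble buffer Pvalb. The study asked what the mechanically gated channel Piezo1 does in mesenchymal stromal cells of mouse muscle, and the genes were read in the 38 whole-tissue muscle and heart libraries among its 90. All mice of these libraries carried Pdgfra-Cre, in which a stromal cell gene drives the recombinase. WT mice had intact Piezo1 (Pdgfra-Cre.Piezo1+/+) and those labelled mutant had floxed Piezo1 (Pdgfra-Cre.Piezo1f/f). Tibialis anterior (TA) muscle was taken at 1, 3 and 7 days after cardiotoxin (CTX), a venom component that kills muscle fibres, with 4 libraries per genotype at day 1 and 3 at days 3 and 7. Quadriceps (Qd) came from other, uninjured sedentary mice, with 3 libraries per genotype. Perfused hearts came from a cohort of uninjured mice and from a cohort killed 3 days after CTX was given to skeletal muscle, with 3 libraries per genotype in each. No uninjured TA was analysed here, so muscle, cohort and injury cannot be told apart where TA is set beside Qd. The labels give no age for these mice and do not call replicates separate animals, so the p-values reflect only how far these samples spread, which may be technical.

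In a muscle cell, a surface voltage sensor opens ryanodine receptors in the SR membrane, and the calcium they release starts contraction. SERCA pumps then return calcium to the SR, where calsequestrin holds it beside the release channel, to which triadin anchors it. Fast skeletal fibres are known for Ryr1, Atp2a1 (SERCA1), Casq1 and much parvalbumin (Pvalb), a cytosolic buffer that speeds relaxation. Heart muscle is known for Ryr2, Atp2a2 (SERCA2), Casq2 and phospholamban (Pln), and slow fibres share Atp2a2 and Casq2 with it. Sarcolipin (Sln) and phospholamban are small membrane proteins that restrain the pumps, and sarcolipin is known from atria and from developing muscle.

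Promoters are shown for a fast-fibre pump, buffer and store protein that moved together in injured TA muscle and for the other calsequestrin, which did not move with them. Each is the stretch from 250 to 41 bases before an annotated start, 5′ to 3′, from RefSeq on GRCm38.p6. Capitals mark E-boxes (CANNTG, of which CAGCTG is a subset) and matches to the MEF2 site, searched on both strands together with CATTCC (the MCAT box), TATAAA (the TATA box) and the CArG box.
Atp2a1, chr7:126463114-126463323, minus strand: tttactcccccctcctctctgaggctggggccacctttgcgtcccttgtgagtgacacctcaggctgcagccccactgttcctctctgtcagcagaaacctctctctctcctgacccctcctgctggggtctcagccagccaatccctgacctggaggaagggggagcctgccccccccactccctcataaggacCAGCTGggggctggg
Pvalb, chr15:78206441-78206650, minus strand: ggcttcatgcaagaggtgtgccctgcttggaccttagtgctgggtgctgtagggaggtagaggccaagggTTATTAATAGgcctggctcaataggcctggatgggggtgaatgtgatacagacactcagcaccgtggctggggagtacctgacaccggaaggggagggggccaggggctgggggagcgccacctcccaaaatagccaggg
Casq1, chr1:172219936-172220145, minus strand: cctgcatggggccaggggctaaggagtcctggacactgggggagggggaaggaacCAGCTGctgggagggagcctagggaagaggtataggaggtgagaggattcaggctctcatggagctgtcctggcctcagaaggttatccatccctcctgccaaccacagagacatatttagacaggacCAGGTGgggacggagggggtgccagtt
Casq2, chr3:102086165-102086374, plus strand: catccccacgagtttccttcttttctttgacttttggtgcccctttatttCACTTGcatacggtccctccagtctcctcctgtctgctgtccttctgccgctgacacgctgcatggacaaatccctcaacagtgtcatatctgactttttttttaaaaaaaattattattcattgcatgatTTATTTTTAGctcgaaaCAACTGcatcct
The Atp2a1 stretch held a CAGCTG that began 55 bases before the start. Casq1 held 2 E-boxes, at 195 and 67 bases before the start, and the former is a CAGCTG. Casq2 held 2 E-boxes, at 200 and 52 bases, and a MEF2 match at 69 bases, and Pvalb held a MEF2 match at 180 bases and no E-box. A further annotated start of Pvalb, not shown, had an E-box at 111 bases and no MEF2 match. Among 32851 promoters of the same length, 60.7% held CANNTG, 10.8% CAGCTG, 11.1% CATTCC, 9.56% TATAAA, 2.5% a MEF2 match and 1.24% a CArG box, so an E-box by itself is common. The Ryr1 stretch held none of the motifs, Ryr2 held 2 E-boxes, and Pln held an E-box and a TATAAA. The table gave no promoter for Atp2a2, Sln and Trdn. A match describes letters only, and a missing match says only that those letters are not in this window.

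Counts per library ran from 4051973 to 10226407 in TA, from 6632892 to 7883104 in Qd and from 27925309 to 37148962 in heart. The unit of level is CPM, the count scaled to library size with TMM factors. Called means a Benjamini-Hochberg adjusted p under 0.05, over all genes tested, by the quasi-likelihood test of edgeR. Piezo1 was not called in any genotype comparison (adjusted p 0.522 to 1), for example at 26.4 ± 7.66 against 25.6 ± 5.91 CPM in TA at day 3 (labelled mutant against WT, SD, n = 3 each), so these counts do not show the knockout, and the mice are called labelled mutant throughout. A count over a whole gene can miss the loss of a few exons, and whole tissue holds many cells in which the Cre is not active. The tissues carried their defining genes: 10 fast fibre markers summed to 187838 to 211694 CPM in Qd, and 8 cardiomyocyte markers to 55894 to 69441 CPM in heart. Some members overlap other genes: Atp2a1 shares 763 exon bases with Rabep2, Ryr1 864 with Gm26604, Casq1 156 with Gm17224, and Pln 1644 with Gm47644 and 141 with Cep85l, all on the other strand. Whether the counting used strand is unknown here, so reads from such pairs cannot be told apart. In bulk tissue, fewer cells of a type and less RNA per cell cannot be told apart either.

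Quadriceps and heart used opposite partners of the release channel, pump and calsequestrin pairs. Of the pump inhibitors, only Pln differed by the test. Ryr1, the release channel of skeletal muscle (chromosome 7 from 29003344 to 29125179, mm10), measured 1424 ± 24.6 CPM in WT Qd and 0.226 ± 0.306 CPM in WT uninjured heart when both tissues were scaled together (SD, n = 3 each). Ryr2, the cardiac release channel (chromosome 13 from 11553102 to 12106945), measured 0.513 ± 0.357 CPM in Qd and 881 ± 33.6 CPM in heart. Trdn, which ties calsequestrin to the release channel (chromosome 10 from 33080554 to 33476709), was present in both, at 874 ± 22.8 and 209.9 ± 13.0 CPM. Among the pumps, Atp2a1 (chromosome 7 from 126445858 to 126463108) fell from 81605 ± 6834 CPM in Qd to 2.37 ± 1.54 CPM in heart, while Atp2a2 (chromosome 5 from 122453513 to 122502225) rose from 60.0 ± 10.5 to 3771 ± 328 CPM. Casq1 (chromosome 1 from 172209894 to 172219868) went from 7171 ± 312 to 14.6 ± 3.31 CPM, and Casq2 (chromosome 3 from 102086415 to 102146514) from 52.3 ± 13.6 to 997 ± 36.6 CPM. Pln (chromosome 10 from 53337667 to 53345987) measured 0.628 ± 0.447 CPM in Qd and 737 ± 70.0 CPM in heart, and Pvalb (chromosome 15 from 78191114 to 78206400) 5429 ± 311 and 0.0838 ± 0.0617 CPM. All of these differed by edgeR's quasi-likelihood test, 4 higher and 5 lower in heart, with adjusted p from 7.68e-19 (Pln) to 2.64e-06 (Ryr1). Over all 16470 genes tested, 50% were called, 26.9% higher and 23.1% lower. Sln (chromosome 9 from 53850164 to 53854560) was not called, at 7.74 ± 0.344 CPM in Qd and 29.7 ± 39.5 CPM in heart (log2 1.86, adjusted p = 0.171). Tissue and cohort cannot be told apart in this comparison.

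Levels of different genes were compared per kilobase of annotated exon within a tissue. In WT Qd, Atp2a1 stood far above the rest at 28363 ± 3019 CPM per kb (SD, n = 3), followed by Pvalb at 6290.5 ± 247 and Casq1 at 4433 ± 110.2 CPM per kb. The membrane partners came much lower, with Trdn at 113 ± 5.47 and Ryr1 at 78.7 ± 3.08 CPM per kb. Casq2 (23.0 ± 5.68), Atp2a2 (11.9 ± 2.33) and Sln (7.09 ± 0.161 CPM per kb) followed, and Pln and Ryr2 were under 1 CPM per kb. No neighbours in this order overlapped between libraries, in WT or in the labelled mutant. In WT uninjured heart the order was Atp2a2 (728 ± 68.0), Casq2 (428 ± 18.0) and Pln (314 ± 31.5 CPM per kb), all well above the others. Ryr2 (35.9 ± 1.41), Sln (26.6 ± 35.5) and Trdn (26.4 ± 1.77 CPM per kb) came next, and the Sln libraries overlapped both of its neighbours in this order. Casq1 stood at 8.76 ± 1.98 CPM per kb, and Atp2a1, Pvalb and Ryr1 were under 1 CPM per kb. The order in Qd was the same with the longest transcript as the length, while in heart Trdn then came before Sln.

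In WT muscle, Ryr1, Atp2a1 and Pvalb fell from day 1 to day 3 after CTX, while Sln and Casq2 rose. From day 3 to day 7, Ryr1, Trdn, Atp2a1, Casq1, Pvalb and Sln rose. Ryr1 measured 458, 351, 609 and 605 CPM in the 4 WT libraries at day 1, 237, 237 and 473 CPM at day 3, and 1307, 895 and 816 CPM at day 7. The highest day 3 library lay within the day 1 range, and all day 7 libraries were above both. The fall of Ryr1 to day 3 (log2 -0.71, SE 0.24, adjusted p = 0.0306) and its rise to day 7 (log2 1.72, SE 0.26, adjusted p = 9.85e-06) were called. Trdn measured 236, 188, 249.5 and 291 CPM at day 1, 126, 161 and 245 CPM at day 3, and 914, 769 and 822 CPM at day 7. Days 1 and 3 overlapped and differed by log2 -0.47 (adjusted p = 0.287), and the rise to day 7 was called (log2 2.29, SE 0.35, adjusted p = 1.89e-05). Ryr2 stayed at or under 0.407 CPM in all 20 TA libraries and did not pass the filter on low counts, so 9 members were tested in TA.

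Atp2a1, the pump of fast fibres, measured 21157, 19351, 26347 and 25386 CPM in WT at day 1, 7008, 8318 and 16902 CPM at day 3, and 73334, 49249 and 56169.6 CPM at day 7. The 3 days did not overlap. It fell 2.19-fold to day 3 (log2 -1.13, SE 0.35, adjusted p = 0.0170) and rose 5.75-fold to day 7 (log2 2.52, SE 0.38, adjusted p = 9.15e-06). Atp2a2, the pump of slow fibres and of many other cells, held a narrow band from 57.4 to 111 CPM over the 10 WT libraries. Its log2 differences were 0.07 from day 1 to day 3 (95% interval -0.35 to 0.50) and -0.01 from day 3 to day 7 (-0.47 to 0.44), and neither was called. Among the buffers, Pvalb measured 2113, 1474, 1805 and 1937 CPM at day 1, 402, 544 and 928 CPM at day 3, and 5246, 3095 and 3024 CPM at day 7, again without overlap. It fell 3.00-fold and then rose 6.30-fold (log2 -1.58, adjusted p = 4.9e-04, and log2 2.65, adjusted p = 1.23e-06).

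The calsequestrins parted. Casq1 measured 1870.1, 1526, 1993 and 2018 CPM at day 1, 672, 999.9 and 1821 CPM at day 3, and 8461, 7499 and 7894 CPM at day 7. Its day 3 libraries reached into the day 1 range and the fall was not called (log2 -0.70, adjusted p = 0.120), whereas the rise to day 7 was 7.09-fold (log2 2.83, SE 0.37, adjusted p = 1.86e-06). Casq2 measured 26.9, 25.7, 33.9 and 42.1 CPM at day 1, 81.3, 145 and 239 CPM at day 3, and 194, 287 and 332 CPM at day 7. All day 3 libraries were above all day 1 libraries, a rise of 4.72-fold (log2 2.24, SE 0.40, adjusted p = 4.04e-04), and the later step was not called (log2 0.86, adjusted p = 0.111). Sln, the inhibitor known from developing muscle, rose most from day 1 to day 3. It measured 8.08, 5.60, 4.62 and 2.94 CPM at day 1, 112, 61.0 and 87.5 CPM at day 3, and 133, 293 and 258 CPM at day 7. No 2 days overlapped, and both steps were called (log2 4.00, SE 0.40, adjusted p = 6.63e-07, and log2 1.43, SE 0.38, adjusted p = 0.00462). Per kilobase, Sln thereby moved from the eighth place among the members at day 1 (4.03 ± 1.63 CPM per kb, n = 4) to the fourth at day 3 (65.9 ± 19.4 CPM per kb, n = 3) and day 7 (173 ± 63.7 CPM per kb, n = 3), or to the fifth at day 7 with the longest transcript as the length. Its libraries overlapped those of Casq2, the next in order, at days 3 and 7. Pln stayed at or under 2.08 CPM in WT TA and was not called.

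**Figure D1:**
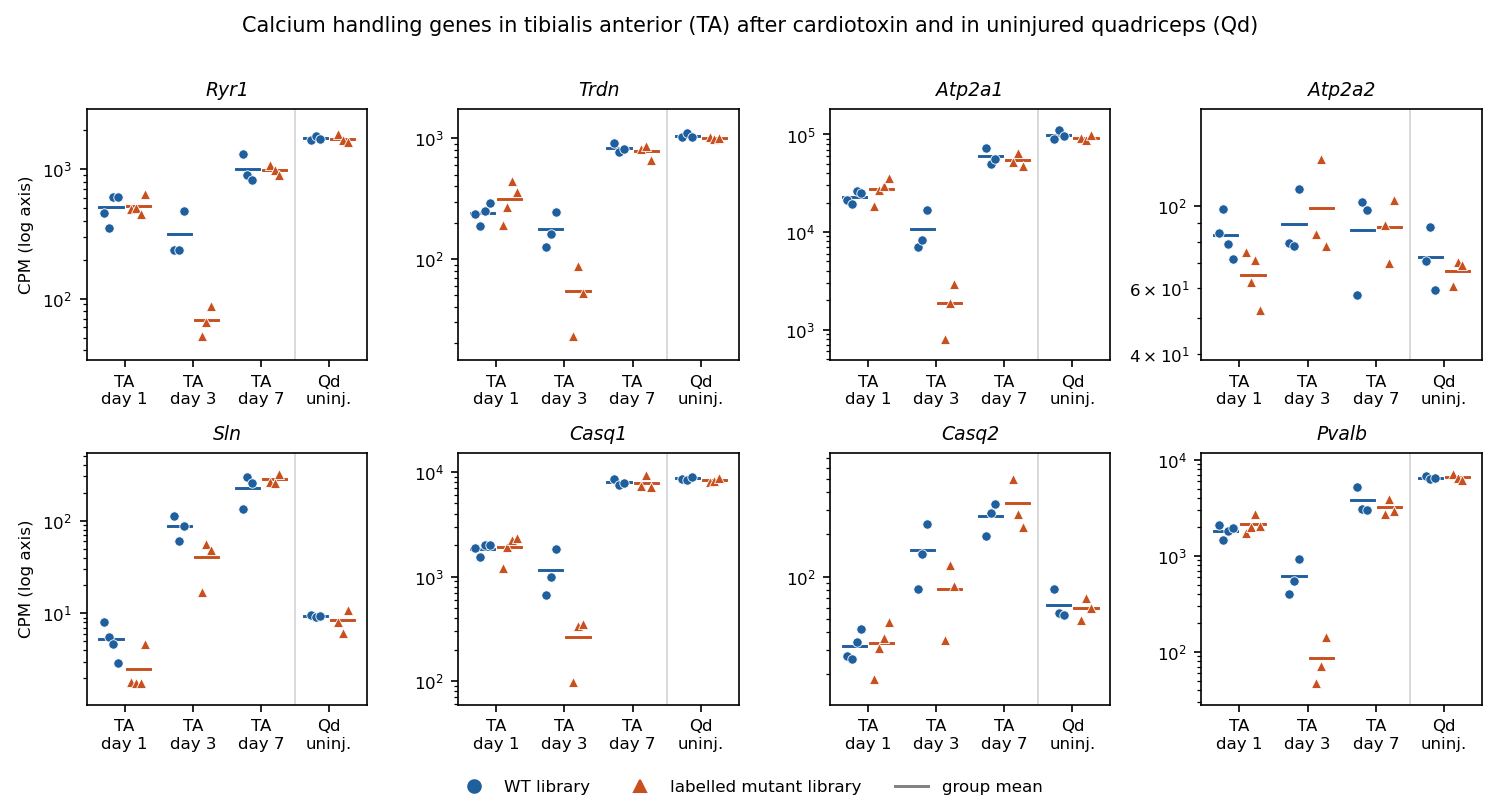
CPM on log axes for 8 members in single libraries of TA muscle at 1, 3 and 7 days after CTX and of uninjured Qd (circles WT, triangles labelled mutant, bars group means). At day 3 the labelled mutant libraries of Ryr1, Trdn, Atp2a1, Casq1 and Pvalb lie below all WT libraries, while at days 1 and 7 the genotypes overlap for these genes.

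Over the members, 2 rose and 3 fell among 9 tested from day 1 to day 3 in WT, where 26.8% of 15499 genes were called (14.1% higher, 12.6% lower), and 6 rose from day 3 to day 7, where 42.5% were called (20.1% higher, 22.4% lower). The fast fibre markers moved with Ryr1, Atp2a1 and Pvalb: the sum of these markers ran from 51334 to 65718 CPM at day 1, from 22053 to 38104 CPM at day 3 and from 127251 to 157582 CPM at day 7. All 8 markers of new fibres and myoblasts were higher at day 3 than at day 1, with sums of 1862 to 2879 against 176 to 261 CPM, and leukocyte markers summed to 6319 to 8091 against 2734 to 3991 CPM. Their part in these steps was not tested. The falls of Atp2a1 and Ryr1 to day 3 depended on the libraries and the settings. Atp2a1 was not called with no filter (adjusted p = 0.0814), nor Ryr1 with only the libraries compared (adjusted p = 0.0756). Without WT day 3 replicate 1 they were log2 -0.92 (adjusted p = 0.104) and -0.55 (adjusted p = 0.157), without replicate 2 they were log2 -0.97 (adjusted p = 0.0960) and -0.53 (adjusted p = 0.173), and the Ryr1 call was also lost without WT day 1 replicate 3 or 4 (adjusted p = 0.0907 and 0.0887). Without WT day 3 replicate 3, the fall of Casq1 was called (log2 -1.17, adjusted p = 0.0165), as was the later rise of Casq2 (log2 1.3, adjusted p = 0.0296).

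At day 3 the labelled mutant held much less of Ryr1, Trdn, Atp2a1, Casq1 and Pvalb than WT. Ryr1 measured 51.8, 65.8 and 88.2 CPM in the labelled mutant against the 237, 237 and 473 CPM of WT. The highest mutant library was below the lowest WT library, a 4.59-fold difference (log2 -2.20, SE 0.27, adjusted p = 3.16e-05). Trdn measured 22.8, 87.8 and 52.0 CPM against 126, 161 and 245 CPM, again without overlap (3.24-fold lower, log2 -1.69, SE 0.34, adjusted p = 0.00353). Atp2a1 measured 801, 1873 and 2899 CPM against 7008, 8318 and 16902 CPM. Every mutant library lay below every WT library, by 5.79-fold on average in the fit (log2 -2.53, SE 0.38, adjusted p = 1.6e-04). Casq1, the fast-fibre calsequestrin, measured 97.8, 339.8 and 349 CPM against 672, 999.9 and 1821 CPM, without overlap (4.44-fold lower, log2 -2.15, SE 0.36, adjusted p = 5.34e-04). Pvalb showed the largest difference among the members, at 47.4, 71.5 and 143 CPM against 402, 544 and 928 CPM, without overlap (7.13-fold lower, log2 -2.83, SE 0.34, adjusted p = 3.16e-05).

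The other members did not pass the test at day 3. Sln measured 17.2, 55.7 and 47.8 CPM in the labelled mutant against 112, 61.0 and 87.5 CPM in WT. The groups did not overlap, but the difference was not called (log2 -1.10, SE 0.38, adjusted p = 0.0770). Casq2 measured 35.1, 122 and 86.1 CPM against 81.3, 145 and 239 CPM, with overlap (log2 -0.92, adjusted p = 0.198). Atp2a2 measured 83.7, 134 and 78.1 CPM against 79.3, 78.1 and 111 CPM, with the 2 groups intermingled (log2 0.15, 95% interval -0.31 to 0.60, adjusted p = 0.748). Pln was near its detection limit, at 0.271 to 0.460 CPM against 0.32 to 1.4 CPM (log2 -0.92, adjusted p = 0.472). In all, 5 of 9 tested members were lower and 0 higher, where 8.98% of 15499 genes were called, 6.37% lower and 2.61% higher. The median of the 9 members was log2 -1.69, and that of all genes -0.02. Trdn lost its call when only the 6 libraries compared entered the fit (log2 -1.71, adjusted p = 0.0608).

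**Figure D2:**
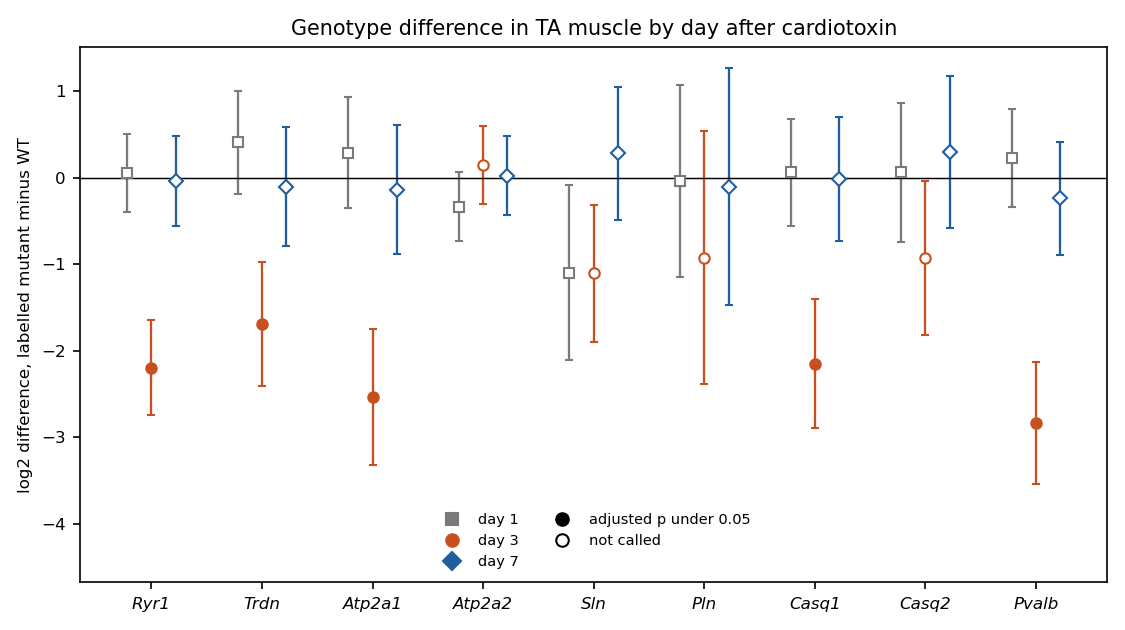
Log2 differences between labelled mutant and WT in TA muscle at days 1, 3 and 7 with their 95% intervals (filled where called, open where not). The filled points of day 3 run from -1.69 (Trdn) to -2.83 (Pvalb), and no member is called at day 1 or day 7.

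Fast fibre markers were lower in the same libraries: all 10 were called, their median was log2 -1.81, and their sum was 2685 to 9484 CPM in the labelled mutant against 22053 to 38104 CPM in WT. Of 8 slow fibre markers, 1 was higher and 0 lower, and of 8 markers of new fibres and myoblasts, 10 leukocyte markers, 8 stromal markers, 5 endothelial markers and 5 red blood cell markers, none was called by edgeR, with 3, 2, 1, 1 and 0 of them at an unadjusted p under 0.05. Of 6 smooth muscle markers, 2 were lower. Summed levels ran from 1089 to 2165 against 1862 to 2879 CPM for new fibres and myoblasts, from 7784 to 7917 against 6319 to 8091 CPM for leukocytes, and from 5843 to 12056 against 10861 to 12602 CPM for stromal cells. The part of these cells in the result was not tested. Set beside the summed fast fibre markers of the same library, Casq1 came to 3.73% ± 0.126 in the labelled mutant and 4.00% ± 0.877 in WT, and Ryr1 to 1.2% ± 0.635 and 1.1% ± 0.128 (SD, n = 3 each). Trdn came to 0.8% ± 0.231 and 0.628% ± 0.0527. These 3 ranges overlapped between genotypes. Atp2a1 came to 27.3% ± 5.11 in the labelled mutant against 36.9% ± 6.59 in WT, with mutant libraries from 21.4% to 30.6% and WT libraries from 31.8% to 44.4%, and Pvalb to 1.36% ± 0.492 against 2.17% ± 0.317, with 0.815% to 1.76% and 1.82% to 2.44%. For both, every mutant library was below every WT library. Casq2 went the other way, at 1.2% ± 0.259 against 0.534% ± 0.143, with 0.908% to 1.39% and 0.369% to 0.627%. Sln came to 0.593% ± 0.0770 and 0.331% ± 0.154, with overlap. None of these ratios was tested.

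Before and after day 3 no difference between genotypes was called. At day 1, Ryr1 measured 493, 497, 448 and 639 CPM in the labelled mutant, Atp2a1 18426, 27255, 29936 and 35921 CPM, and Pvalb 1748, 1980.3, 2744 and 2039 CPM, all overlapping the WT values above. Their log2 differences were 0.06 (95% interval -0.39 to 0.51), 0.29 (-0.35 to 0.93) and 0.23 (-0.34 to 0.80). Of the 9 members tested at day 1, 0 were called by edgeR and 0 by DESeq2, where edgeR called 0.0774% of 15499 genes, all lower (0% higher). The only member with an unadjusted p under 0.05 was Sln, at 1.83, 1.79, 1.75 and 4.67 CPM against 8.08, 5.60, 4.62 and 2.94 CPM (log2 -1.10, unadjusted p = 0.0356, adjusted p = 0.812). At day 7, Ryr1 measured 1079, 980.1 and 893 CPM in the labelled mutant, Atp2a1 52000.0, 64025 and 47311 CPM, Casq1 7287, 9301 and 7141 CPM, and Pvalb 2766, 3963 and 2960.2 CPM. All 4 overlapped the WT range, with log2 differences of -0.04 (-0.56 to 0.48), -0.14 (-0.88 to 0.61), -0.01 (-0.73 to 0.70) and -0.24 (-0.89 to 0.42). At day 7, 0 of 9 members and 0% of all genes were called by edgeR, 0 members had an unadjusted p under 0.05, and DESeq2 called 0 members.

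Whether the genotype difference varied with the day was tested jointly over the 3 days. It did for the same 5 members, with the difference at day 3 minus that at day 1 at log2 -2.25 for Ryr1 (adjusted p = 9.29e-04), -2.10 for Trdn (adjusted p = 0.0206), -2.82 for Atp2a1 (adjusted p = 0.00296), -2.21 for Casq1 (adjusted p = 0.00984) and -3.07 for Pvalb (adjusted p = 7.75e-04). Here 3.89% of 15499 genes were called. For Sln the differences at days 1 and 3 were of like size (log2 -0.01 between them, joint adjusted p = 0.216), and Casq2 (log2 -0.99, adjusted p = 0.409) and Atp2a2 (log2 0.48, adjusted p = 0.553) were not called. Casq1 and Trdn lost their calls without WT day 3 replicate 3 (log2 -1.75, adjusted p = 0.0611, and log2 -1.81, adjusted p = 0.0902) and with no filter on low counts (adjusted p = 0.0603 and 0.0906).

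Within the labelled mutant, the swing through day 3 was wide. From day 1 to day 3, Pvalb fell 25.1-fold, Atp2a1 15.5-fold, Ryr1 7.79-fold, Casq1 7.55-fold and Trdn 5.97-fold (adjusted p 9.11e-10 to 3.48e-06). From day 3 to day 7, Pvalb rose 38.1-fold, Casq1 31.2-fold, Atp2a1 30.3-fold, and Ryr1 and Trdn 14.7-fold each (adjusted p 1.95e-10 to 2.6e-08). Sln rose at both steps, 15.9-fold and 7.06-fold (adjusted p = 8.11e-07 and 7.39e-06), as did Casq2, 2.38-fold and 4.23-fold (adjusted p = 0.0167 and 5.47e-04). All 9 tested members were called from day 1 to day 3, 3 higher and 6 lower, beside 44.6% of 15499 genes (22% higher, 22.6% lower), and 7 were called higher from day 3 to day 7, beside 52.7% (25.8% higher, 27% lower). These comparisons share the day 3 libraries with those above. From day 1 to day 3, the call of Atp2a2 (log2 0.56, adjusted p = 0.0307) was lost without mutant day 3 replicate 2 (log2 0.27, adjusted p = 0.311) or mutant day 1 replicate 2 or 4 (adjusted p = 0.0607 and 0.0888). That of Casq2 was lost without mutant day 3 replicate 2 (log2 0.84, adjusted p = 0.159) or day 1 replicate 1 (log2 1.06, adjusted p = 0.0540), and that of Pln (log2 -1.80, adjusted p = 0.0299) without either of mutant day 3 replicates 2 and 3 and day 1 replicates 2 and 3 (adjusted p 0.0519 to 0.101). With no filter, Casq2 (adjusted p = 0.0701) and Pln (adjusted p = 0.123) were not called either. Pln measured only 0.271 to 0.460 CPM at day 3.

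The balance of the calsequestrins shifted at day 3 in both genotypes. Per kilobase, Casq2 made up 1.22% ± 0.187 of Casq1 plus Casq2 in WT at day 1 (SD, n = 4), 8.63% ± 0.724 at day 3 (n = 3) and 2.39% ± 0.694 at day 7 (n = 3). In the labelled mutant it made up 1.2% ± 0.146, 18.6% ± 3.13 and 2.98% ± 1.46. The day 3 libraries ran from 15.0% to 20.4% in the labelled mutant and from 7.94% to 9.38% in WT, without overlap. At the same time the absolute Casq2 level was not higher in the labelled mutant (81.1 ± 43.7 against 155 ± 79.3 CPM), and Casq1 was 4.44-fold lower. In Qd the share was 0.517% ± 0.129 in WT and 0.511% ± 0.0912 in the labelled mutant, and in heart it was 96.8% to 98.4% by group means. For the pumps, Atp2a2 made up 0.516% ± 0.136 of both pumps per kilobase in WT at day 3 and 3.69% ± 2.07 in the labelled mutant, while its own level did not differ. The release channels showed no such shift, since Ryr2 made up at most 0.232% of both in any skeletal muscle library. These shares were not tested and their error is the spread between libraries.

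**Figure D3:**
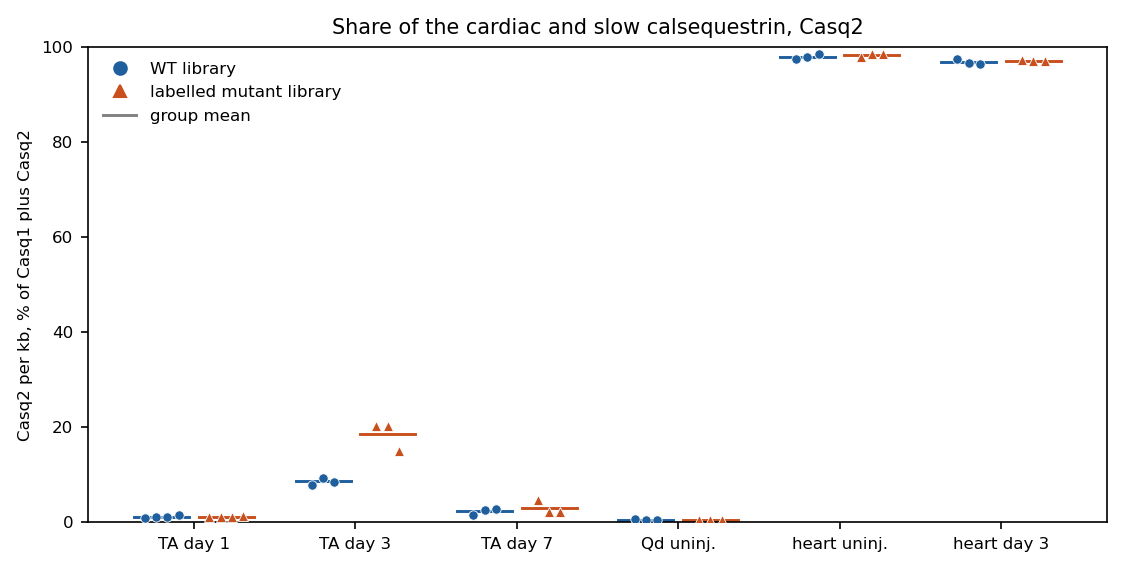
Casq2 per kilobase as a percentage of Casq1 plus Casq2 in single libraries (circles WT, triangles labelled mutant, bars group means). The share is under 2% in TA at day 1, peaks at day 3 with 8.63% in WT and 18.6% in the labelled mutant, and is 96.8% to 98.4% in heart.

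In uninjured Qd the genotypes did not differ by the test. Atp2a1 measured 90054, 110329.7 and 95467 CPM in WT and 91106, 88024 and 98456 CPM in the labelled mutant, with overlap (log2 -0.05, 95% interval -0.20 to 0.11). Ryr1 (1663 to 1793 against 1607 to 1873 CPM), Casq1 (8449.8 to 8877 against 8068 to 8660.4 CPM) and Pvalb (6360.3 to 6842 against 6119.9 to 7095 CPM) overlapped too, with log2 differences of 0.04 (-0.08 to 0.16), -0.02 (-0.12 to 0.09) and 0.05 (-0.06 to 0.16). Trdn did not overlap, at 1026, 1114 and 1025 CPM in WT and 1019, 979.9 and 998 CPM in the labelled mutant, with a log2 difference of -0.03 (-0.15 to 0.08, adjusted p = 0.928). Of 8 members tested (Ryr2 and Pln did not pass the filter), 0 were called by edgeR or DESeq2 and 0 had an unadjusted p under 0.05, and 0% of 11856 genes were called by edgeR.

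At day 7, Pvalb and Ryr1 of WT TA were below the level of Qd, Casq2 and Sln were above it, and Atp2a1, Casq1, Trdn, Atp2a2 and Pln were not called. Casq1 measured 7952 ± 483 against 8649.6 ± 215 CPM in Qd (log2 -0.13, 95% interval -0.78 to 0.52, adjusted p = 0.815) and Trdn 835 ± 73.2 against 1055 ± 51.2 CPM (log2 -0.34, adjusted p = 0.448). The Trdn libraries did not overlap, and with only the libraries compared in the fit Trdn was called (adjusted p = 0.0188). Pvalb (3788 ± 1263 against 6548 ± 257 CPM, log2 -0.80, adjusted p = 0.0442) and Ryr1 (1006 ± 264 against 1719 ± 67.2 CPM, log2 -0.78, adjusted p = 0.0136) were lower. Atp2a1 measured 59584 ± 12400.2 against 98617 ± 10498 CPM, below all Qd libraries but not called (log2 -0.73, adjusted p = 0.107; adjusted p = 0.0406 by DESeq2 and 0.00193 with only the libraries compared). Casq2 was higher (271 ± 70.8 against 63.0 ± 15.5 CPM, log2 2.10, adjusted p = 0.00119), and Sln by far the most (228 ± 83.9 against 9.34 ± 0.213 CPM, log2 4.60, adjusted p = 9.82e-08). The labelled mutant set beside its own Qd had 2 lower and 2 higher members as well: Pvalb (log2 -1.05, adjusted p = 0.00756), Ryr1 (log2 -0.82, adjusted p = 0.00803), Casq2 (log2 2.46, adjusted p = 2.18e-04) and Sln (log2 5.03, adjusted p = 2.37e-08). There Pvalb was not called with no filter (adjusted p = 0.0637). Atp2a1 was called lower by DESeq2 (adjusted p = 0.0220) and with only the libraries compared (adjusted p = 2.49e-04), as was Trdn in the latter (adjusted p = 0.00825). Of all 15558 genes, 25.7% were called in WT (14.9% higher, 10.8% lower) and 29.5% in the labelled mutant (17.5% higher, 11.9% lower). Markers of new fibres and myoblasts were also higher than in Qd, with sums of 696 to 1654 against 54.8 to 72.2 CPM in WT and all 8 called, and their part in the result was not tested. Without WT day 7 replicate 2 or 3, Pvalb (log2 -0.67 and -0.65, adjusted p = 0.173 and 0.184) and Ryr1 (log2 -0.70 and -0.65, adjusted p = 0.0704 and 0.0884) were not called. Pvalb was also not called without any of the WT Qd libraries (adjusted p 0.0836 to 0.110) or with no filter (adjusted p = 0.22).

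At days 1 and 3, 6 and 7 of 9 members of WT TA differed from Qd, beside 55.6% (29.9% higher, 25.6% lower) and 58% (31.7% higher, 26.3% lower) of 15558 genes. Both counts include Casq2, which was lower at day 1 (log2 -1.01, adjusted p = 0.0385) and higher at day 3 (log2 1.25, adjusted p = 0.0161). The former call was lost without WT Qd replicate 1 or 2 or WT day 1 replicate 1, 2 or 3 (adjusted p 0.0510 to 0.164), and the latter without WT Qd replicate 2 or 3 or WT day 3 replicate 3 (adjusted p = 0.0579, 0.0583 and 0.124). The day 1 call of Casq2 was also lost with no filter (adjusted p = 0.14). Sln at day 1 lay below all Qd libraries but was not called in the main fit. It was called lower without WT day 1 replicate 1 (log2 -1.11, adjusted p = 0.0493) and with only the libraries compared (log2 -0.87, adjusted p = 0.0153). At day 3, Atp2a1 was 9.46-fold, Pvalb 10.8-fold, Casq1 7.67-fold, Trdn 6.14-fold and Ryr1 5.60-fold lower than in Qd (adjusted p 3.47e-10 to 1.56e-07), and Sln 9.06-fold higher (adjusted p = 8.97e-07). The median of all genes was log2 0.12 at day 1 and 0.14 at day 3 in these comparisons, against medians of log2 -1.80 and -2.49 over the 9 members.

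Other genes of the same machinery were taken from a list of 43, of which 42 were found and 41 tested in TA. At day 3, 17 were lower and 2 higher in the labelled mutant, and 22 were not called, with a median of log2 -0.84, beside 6.37% of all genes lower and 2.61% higher. By list, 7 of 12 triad and SR membrane genes, 5 of 7 voltage sensor genes, 5 of 10 genes for surface entry, extrusion and kinases and 0 of 12 genes for other SR pumps, channels and small regulators were lower. Sypl2, a junctional membrane protein, measured 7.72 ± 4.33 against 46.1 ± 20.9 CPM (log2 -2.52, adjusted p = 5.16e-05, n = 3 each). Cacna1s, the voltage sensor itself, measured 32.7 ± 22.6 against 181 ± 79.0 CPM (log2 -2.46, adjusted p = 1.52e-04), and Hrc, a calcium-binding protein of the SR lumen, 19.0 ± 13.2 against 89.4 ± 36.4 CPM (log2 -2.21, adjusted p = 2.39e-04). Calmodulin Calm2 (452 ± 235 against 253 ± 13.6 CPM, log2 0.84, adjusted p = 0.0133) and Sri, sorcin (114 ± 39.7 against 78.0 ± 6.91 CPM, log2 0.55, adjusted p = 0.0466) were the higher ones. At days 1 and 7, 0 of 41 were called by edgeR, with 3 and 1 at an unadjusted p under 0.05. The joint test over days called 14 of 41, all with negative differences, beside 3.89% of all genes, led by Cacna1s (log2 -2.54, adjusted p = 0.00306), Stac3, which couples the sensor to the channel (log2 -2.43, adjusted p = 0.0256), and Hrc (log2 -2.43, adjusted p = 0.00328).

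In WT, 6 of the 41 rose and 5 fell from day 1 to day 3, beside 14.1% and 12.6% of all genes, and 30 were not called (median log2 -0.17). From day 3 to day 7, 24 of 41 rose and 5 fell, beside 20.1% and 22.4% of all genes. Those that rose included the kinase subunit Camk2b (32.1 ± 8.71 to 266 ± 14.5 CPM, log2 3.10), Sypl2 (log2 2.69) and Hrc (log2 2.52), with adjusted p of 2.21e-08, 2.33e-07 and 2.15e-06. The plasma membrane pump Atp2b1 (133 ± 12.3 to 67.5 ± 5.01 CPM, log2 -0.93, adjusted p = 6.07e-05), Sri (log2 -0.85, adjusted p = 4.37e-04) and the sodium-calcium exchanger Slc8a1 (log2 -0.78, adjusted p = 0.0497) fell. At day 7, Camk2b was still above Qd (log2 1.38, adjusted p = 1.48e-04), and Mrln, myoregulin, a small SERCA inhibitor, was below it (29.7 ± 9.93 against 75.3 ± 10.7 CPM, log2 -1.35, adjusted p = 4.15e-04), the opposite of Sln. In the labelled mutant the same held for Camk2b (log2 1.45, adjusted p = 6.12e-05) and Mrln (19.7 ± 1.62 against 64.1 ± 1.69 CPM, log2 -1.72, adjusted p = 2.26e-05).

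In hearts taken 3 days after CTX to skeletal muscle, the cardiac release channel was lower and the cardiac pump higher in the labelled mutant. Ryr2 measured 825, 696 and 553 CPM in the labelled mutant against 1174, 1112 and 1038 CPM in WT. All 3 mutant libraries lay below all WT libraries (1.59-fold lower, log2 -0.67, SE 0.12, adjusted p = 0.0133). Atp2a2 measured 6946, 7424 and 7662 CPM against 5415, 4498 and 4825 CPM, without overlap in the other direction (1.5-fold higher, log2 0.59, SE 0.09, adjusted p = 0.0115). Pln, its inhibitor, measured 865, 1372 and 1380.3 CPM against 1000.5, 898 and 935 CPM, with 1 mutant library below WT and 2 above (log2 0.36, adjusted p = 0.164). Casq2 (1548, 1332 and 1504 against 1476, 1220.4 and 1418 CPM, log2 0.10, 95% interval -0.11 to 0.31) overlapped. Trdn measured 106, 303 and 317 CPM against 272, 251 and 261 CPM, with the same library low and the other 2 above WT (log2 -0.10, adjusted p = 0.895). That library is labelled mutant replicate 1, and without it Pln was called (log2 0.54, adjusted p = 0.00397). Pln was also called with all libraries and no filter (log2 0.35, adjusted p = 0.0129). Of 10 members, 1 was higher and 1 lower, beside 3.92% of 18433 genes called, 1.58% higher and 2.33% lower.

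**Figure D4:**
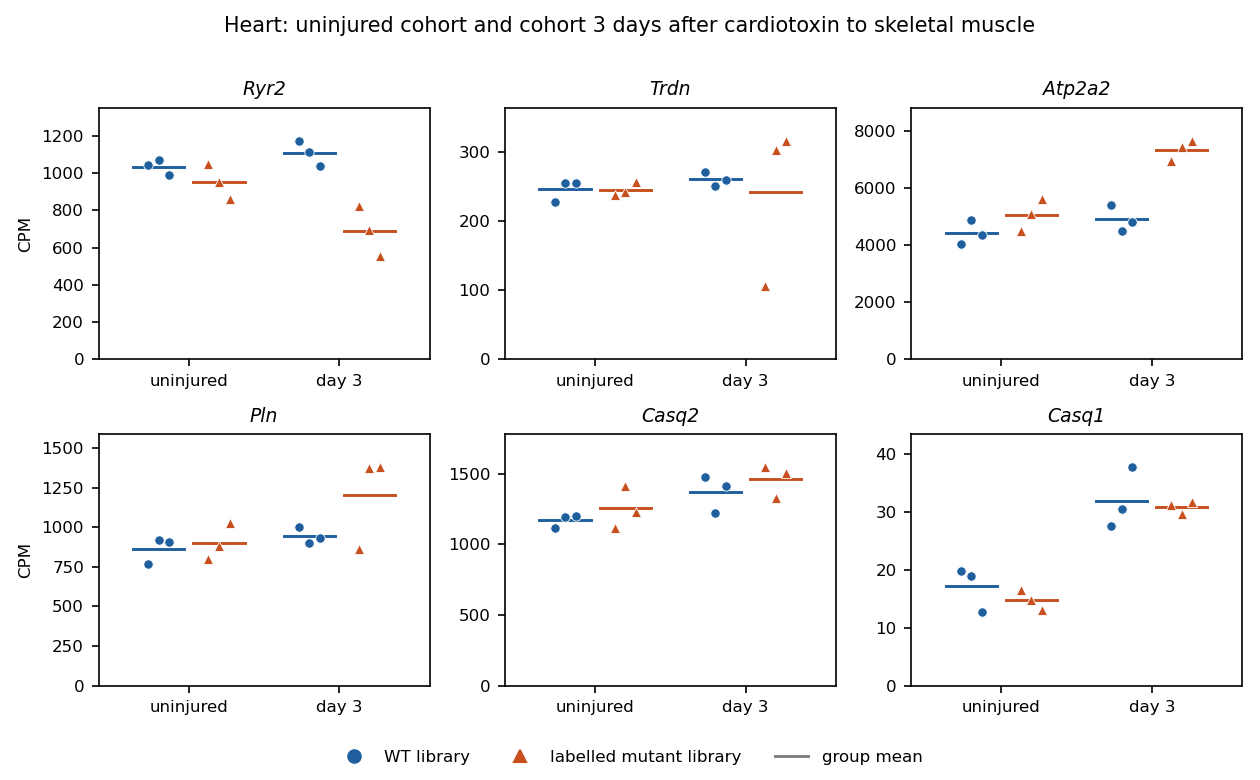
CPM of 6 members in single heart libraries of the uninjured cohort and of the cohort 3 days after CTX to skeletal muscle (circles WT, triangles labelled mutant, bars group means). At day 3, Ryr2 of the labelled mutant (553 to 825) lies below WT (1038 to 1174), Atp2a2 (6946 to 7662) lies above WT (4498 to 5415), and 1 mutant library is low in Trdn and Pln.

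The heart calls rest on few libraries and on the pooled spread. With only the 6 day 3 libraries in the fit, Atp2a2 (log2 0.57, adjusted p = 0.0565) and Ryr2 (log2 -0.69, adjusted p = 0.0647) were not called. They were also lost without WT day 3 replicate 3 (log2 0.52 and -0.68, adjusted p = 0.0612 for both), and Ryr2 without replicate 2 (log2 -0.63, adjusted p = 0.0558). Differences in these hearts moved with transcript length. Genes whose longest transcript is over 8 kb had a median of log2 -0.36 (855 genes, 1 called higher and 109 lower), and genes of 1 to 2 kb a median of log2 0.13 (3408 genes, 88 higher and 21 lower). The longest annotated transcript of Ryr2 has 16814 bases and that of Atp2a2 5674. Genes of 4 to 8 kb, the length class of Atp2a2, had a median of log2 -0.15 (4871 genes, 29 higher and 189 lower). In uninjured hearts the medians of the same classes were -0.04, 0.01 and -0.01. The part of transcript length or RNA quality in the Ryr2 result was not tested. Cardiomyocyte markers summed to 55894 to 69441 CPM against 59929 to 64700 CPM, and of 8, a list that holds Ryr2 itself, 1 was higher and 1 lower. No leukocyte marker of 10 and no atrial marker of 4 was called by edgeR, with 4 and 0 of them at an unadjusted p under 0.05.

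In the uninjured cohort Ryr2 measured 1047, 951 and 861 CPM in the labelled mutant and 1046, 1069 and 989.7 CPM in WT, and Atp2a2 4480.0, 5086 and 5613 against 4049.7, 4869.7 and 4368 CPM. Both overlapped, with log2 differences of -0.12 (95% interval -0.37 to 0.13) and 0.19 (-0.01 to 0.39). Of 10 members 0 were called by edgeR or DESeq2 and 0 had an unadjusted p under 0.05, and edgeR called 0% of 18433 genes. The test of the difference between cohorts gave log2 -0.55 for Ryr2 (unadjusted p = 0.00476, adjusted p = 0.288) and 0.40 for Atp2a2 (unadjusted p = 0.00844, adjusted p = 0.318), with 0 of 10 members and 0% of genes called by edgeR, 2 members at an unadjusted p under 0.05 and 0 called by DESeq2. This test was chosen after results were seen. Without labelled mutant day 3 replicate 1, Ryr2 was called in it (log2 -0.70, adjusted p = 0.0294). With no filter on low counts it was called with all libraries too (log2 -0.56, adjusted p = 0.0120). Atp2a2 was not called in the alternatives run. Values of this test moved with transcript length as well, with a median of log2 -0.30 for genes over 8 kb, the class of Ryr2. Genes of 4 to 8 kb, the class of Atp2a2, had a median of log2 -0.14, and those of 1 to 2 kb a median of 0.10. The part of transcript length was not tested.

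Casq1, a minor calsequestrin in heart, was called higher in the day 3 cohort in the labelled mutant. In WT it was called by DESeq2 and by edgeR with no filter, but not by edgeR with the filter. It measured 19.7, 18.9 and 12.7 CPM in uninjured WT and 27.5, 30.5 and 37.7 CPM in WT at day 3, without overlap (log2 0.90, SE 0.18, adjusted p = 0.101, 9.48e-04 by DESeq2 and 4.7e-04 by edgeR with no filter). In the labelled mutant it measured 16.5, 14.7 and 13.1 CPM and 31.2, 29.5 and 31.6 CPM, a called 2.09-fold rise (log2 1.07, SE 0.18, adjusted p = 0.00936). In WT, 0 of 10 members were called by edgeR with the filter and 1 by DESeq2, with 2 at an unadjusted p under 0.05, beside 0.103% of 18433 genes (0.038% higher, 0.0651% lower). In the labelled mutant Atp2a2 (log2 0.55, adjusted p = 0.00996) and Ryr2 (log2 -0.46, adjusted p = 0.0401) were called as well, beside 4.75% of genes (2.05% higher, 2.7% lower). All 3 calls were lost with only the 6 libraries compared (adjusted p = 0.0799, 0.125 and 0.185), and those of Atp2a2 and Ryr2 without uninjured mutant replicate 2 (adjusted p = 0.0534 and 0.163). Ryr2 was also lost without uninjured mutant replicate 3 or day 3 replicate 2 or 3 (adjusted p = 0.111, 0.0637 and 0.123). Differences between the mutant cohorts moved with transcript length too. Genes over 8 kb, the class of Ryr2, had a median of log2 -0.34 (855 genes, 3 higher and 106 lower). The median was -0.15 for 4 to 8 kb, the class of Atp2a2, and 0.11 for 1 to 2 kb, the class of Casq1. The part of transcript length was not tested. Without day 3 replicate 1, Pln (log2 0.61, adjusted p = 0.0018) and Trdn (log2 0.34, adjusted p = 0.0157) were called higher, and Pln also with all libraries and no filter (log2 0.42, adjusted p = 0.00129). The cohorts were separate, so the injury and the cohort cannot be told apart, and red blood cell genes summed to 378 to 832 CPM at day 3 against 788 to 3455 CPM in the uninjured labelled mutant. Smooth muscle markers summed to 788 to 938 CPM in WT at day 3 against 517 to 540 CPM in uninjured WT. In the labelled mutant they summed to 652 to 912 against 456 to 590 CPM, while endothelial markers were lower at day 3 (750 to 900 against 949 to 1088 CPM). The part of these cells was not tested.

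Of the 41 other calcium genes tested in heart, 2 were higher and 3 lower in the labelled mutant at day 3, beside 1.58% and 2.33% of all genes. The count over all genes fell from 722 to 10 with only the libraries compared, and it moved with transcript length as given above. The cardiac calcium channel subunits Cacna1c (118 ± 17.6 against 208 ± 23.7 CPM, log2 -0.80, adjusted p = 0.0154) and Cacnb2 (15.0 ± 1.35 against 27.7 ± 3.82 CPM, log2 -0.88, adjusted p = 0.0196) were lower, as was Stim1, the sensor of store depletion (log2 -0.71, adjusted p = 0.0376). S100a1, a calcium-binding modulator of the pump and release channel (696 ± 67.7 against 548 ± 3.08 CPM, log2 0.35, adjusted p = 0.0483), was higher.

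Among the members above 1 CPM in every heart library, Sln was the most uneven. It measured 8.84, 89.0 and 7.24 CPM in uninjured WT, 49.5, 35.8 and 60.0 CPM in the uninjured labelled mutant, 17.4, 15.6 and 53.0 CPM in WT at day 3, and 37.7, 17.6 and 51.7 CPM in the labelled mutant at day 3. The 12.3-fold range within and across groups left no genotype or cohort difference called (adjusted p 0.850 to 1). The 4 atrial genes, Myl7, Myl4, Nppa and Bmp10, ranged with it, with a sum from 166 to 1253 CPM, a 7.55-fold range. Sln came to between 4.14% and 9.28% of this sum in the 12 libraries. How much atrium each heart sample held is not given in the labels, and its part was not tested.

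**Figure D5:**
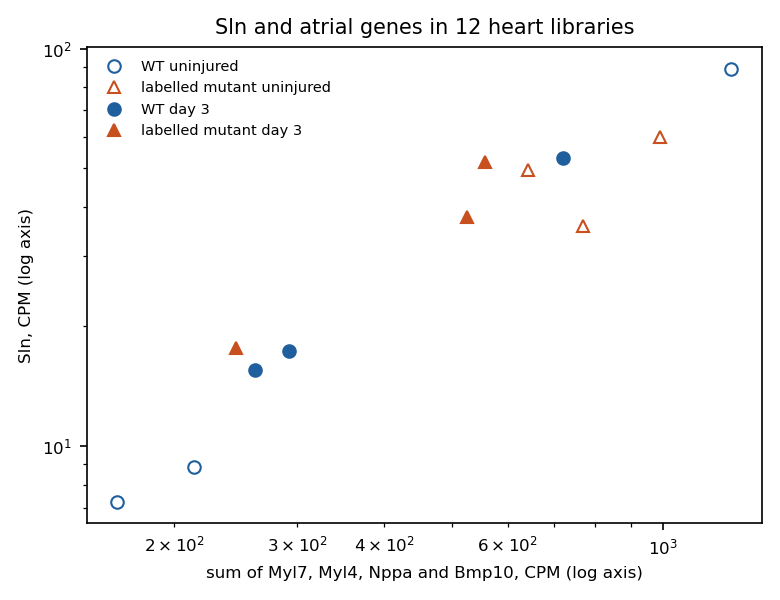
Sln against the sum of Myl7, Myl4, Nppa and Bmp10 in 12 heart libraries, both in CPM on log axes (open uninjured, filled day 3, circles WT, triangles labelled mutant). Sln ranges from 7.24 to 89.0 CPM while the sum ranges from 166 to 1253 CPM, and libraries of all 4 groups lie along the same band.

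The genes with the most similar profiles were sought among 8715 genes over the 26 skeletal muscle libraries, by the root mean square distance between log2(CPM + 1) values, each gene centred on its own mean. Libraries share depth, tissue and injury stage, so this is a description. Nearest to Atp2a1 were Mybpc2 (distance 0.146), Pygm and Myoz1, against a spread of Atp2a1 itself of 1.85 (SD). Nearest to Pvalb were Pygm (0.264), Atp2a1 and Mybpc2, and to Casq1 Hrc (0.243), Sh3bgr and Mylpf. Ryr1 lay nearest to Prkaa2 (0.194), Pde4dip and Myom1, and Trdn to Fxyd1 (0.209), Ak1 and Asb12. Casq2 and Sln lay farther from any other gene: Gamt (0.481), Rian and Arpp21 came nearest to Casq2, and Myl4 (0.815), Maged2 and Myh8 to Sln. Atp2a2, which varied little (SD 0.314), lay nearest to Gskip (0.222), Capns1 and Cdk5rap3. Over the 12 heart libraries and 8203 genes, Ryr2 lay nearest to Brd2 (0.0699) and Gcn1, Atp2a2 to Capns1 (0.0595), Ado and Sub1, and Sln to Myl7 (0.245), Myl4 and Mybphl. Casq2 lay nearest to Actr3 (0.0745), Pln to Septin2 (0.0809) and Trdn to Mir99ahg (0.0895).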

How the data were processed

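Tissue libraries were made from 2 ng of RNA each, as polyA RNA libraries of the Immunological Genome Project type, per the labels' protocols. The submitters' processing notes name STAR 2.7.3a, featureCounts and mm10. No version of featureCounts, annotation or strand setting could be taken from the sources. The deposited counts are whole numbers for 55011 symbols in 90 libraries and were used unchanged, and CPM was computed here from these deposited counts. Of the columns, 12, all of sorted cells, could be matched to their group only. Replicates differed by a chi-square of 2.75 per gene or more, so none was counted as a repeat.

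There were 19 comparisons. Those within TA shared a fit of 20 libraries, those of TA with Qd a fit of 26 and those within heart a fit of 12, so they are not independent. The software was R 4.3.3 with edgeR 4.0.16 (robust quasi-likelihood test after TMM and filterByExpr with min.count 10, Benjamini-Hochberg adjustment). Standard errors and 95% intervals were derived from the log2 value and its F statistic. Results were recomputed with RLE factors, with DESeq2 1.42.0, without the filter, with the replicate number as a block, with only the libraries compared, without each library in turn, and with the longest transcript as length. Lengths and loci are those of GENCODE M21 on mm10, and promoters those of RefSeq.

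The members and lists were chosen with earlier results of these data known. Of the other calcium genes, those named were called, with the highest folds and at least 10 CPM in the higher group, at most 3 per direction. Nearest profiles, up to 3 per member, were sought among genes averaging at least 10 CPM, with a pseudocount of 1. A few genes chosen this way are not reported here. The tests were also tested on simulated data.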

Additional observations from a re-analysis of the deposited data

Results flagged for a closer look

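Sln in TA muscle of the labelled mutant at day 1 had 1 library apart from the others, at 4.67 CPM against 1.75 to 1.83 CPM. Chance alone sets a library apart by this measure in about 1 in 20 groups. All 10 members were screened in TA of both genotypes at day 1, so a flag of this kind can readily arise by chance.

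The genotype difference in TA muscle varied with the day by the joint edgeR test for 5 members. At day 3 minus day 1 it was log2 -2.82 for Atp2a1, -3.07 for Pvalb, -2.21 for Casq1, -2.25 for Ryr1 and -2.10 for Trdn, with adjusted p from 7.75e-04 to 0.0206.

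Several members were above the limit that a count of 0 allows in libraries outside the comparisons of muscle and heart. Atp2a2 averaged 126 CPM in 30 libraries of freshly sorted mesenchymal stromal cells (MmSCs), 173 CPM in 14 libraries of cultured MmSCs and 72.0 CPM in 8 liver libraries. Ryr1 averaged 14.6 CPM in cultured MmSCs. By group, Ryr1 measured 4.21 ± 0.467 CPM with vehicle at 0 h and 4.22 ± 0.435 CPM after 2 h of Yoda1, a chemical Piezo1 agonist. In libraries that the labels name apart from these, it measured 21.4 ± 4.06 CPM without stimulation, 22.9 ± 2.03 CPM after 4 h of Yoda1 and 16.7 ± 1.99 CPM after 6 h (SD, n = 3, but 2 at 2 h). The gap between the 2 sets was present without Yoda1, at 21.4 CPM without stimulation against 4.21 CPM with vehicle at 0 h. Setting 2 h beside 4 or 6 h of Yoda1 crosses the sets, so there the time and the set cannot be told apart. These differences were not tested here. In the 10 groups of freshly sorted MmSCs, Ryr1 means ran from 0.964 to 3.07 CPM. In liver, Casq2 averaged 2.43 CPM, Pln 1.88 CPM, Ryr2 1.70 CPM and Trdn 0.398 CPM, while Pvalb had 0 counts in all 8 liver libraries.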

How the results depend on the processing

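Of the values for single members, 794 were the same under a changed setting, 18 lost their call, 15 gained one, 8 moved in size and 1 reversed. A called value was the same if still called in the same direction, whatever its size. A value called in neither fit was the same within about 1 standard error, whatever its sign, and otherwise moved. A change of sign was counted as reversed only where either fit called the value. With 1 library left out, 1198 were the same, 40 lost their call, 6 gained one, 42 moved in size and 1 reversed. Members called with 1 library left out numbered 3 to 6 from day 1 to day 3 in WT TA (5 with all), 3 to 5 in the TA genotype by day test (5), 2 to 4 in WT day 7 against Qd (4), 0 to 3 in heart genotype at day 3 (2), 1 to 5 in the mutant heart cohorts (3) and 0 to 1 in the heart genotype by cohort test (0). With no filter they numbered 3 in the TA genotype by day test, 1 (0 with the filter) between WT heart cohorts and 1 in the heart genotype by cohort test, and DESeq2 called 1 between WT heart cohorts. With only the libraries compared, both heart counts of the labelled mutant at day 3 went to 0. Replicate numbers showed no clear pairing of the samples: deviations of same-numbered samples correlated at -0.16 to 0.22. In no comparison with 3 or more pairs was every correlation over 0.1, though in TA genotype at day 3 they ran from 0.0325 to 0.158. So few pairs cannot exclude a pairing. The replicate block called 5 members between the mutant heart cohorts and 1 in the heart genotype by cohort test, Ryr2 (log2 -0.75, adjusted p = 0.0118). It also called Pln in heart genotype at day 3 (adjusted p = 0.00327) and between the mutant heart cohorts (adjusted p = 0.00164). It did not call Ryr1 from day 1 to day 3 in WT TA (adjusted p = 0.0544), nor Atp2a2 and Pln in the labelled mutant (adjusted p = 0.0791 and 0.06). Trdn between the mutant heart cohorts reversed from log2 -0.01 to 0.36 with the block (adjusted p = 0.0192), and ranged from -0.26 to 0.34 with 1 library left out. Among the heart libraries, replicate number 1 occurs only in the labelled mutant at day 3. The block therefore gives that library a term of its own, which in effect sets it aside. Without that library, Trdn was at log2 0.34 (adjusted p = 0.0157) and Ryr2 in the cohort test at log2 -0.70 (adjusted p = 0.0294). The heart calls of the block are thus no separate line of support. Why that library differs was not tested.

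Counts over all genes moved by more than 1.5 times as follows. TA genotype at day 1 called 12, but 92 with no filter, 49 by DESeq2 and 5 to 18 with 1 library left out. At day 3 it called 1392, but 257 with only the libraries compared and 431 to 1721 with 1 left out, and at day 7 it called 0, but 10 with no filter. The genotype by day test called 603, but 1208 with no filter, 1092 by DESeq2 and 243 to 837 with 1 left out. Qd genotype called 0, but 20 with no filter and 0 to 1 with 1 left out. Heart genotype called 0 in uninjured mice (58 with no filter, 10 by DESeq2, 0 to 1 with 1 left out) and 722 at day 3 (1457 with no filter, 1811 by DESeq2, 1358 with the block, 10 with only the libraries compared, 24 to 1369 with 1 left out). Between cohorts, WT hearts had 19 (122 with no filter, 88 by DESeq2, 63 with only those libraries, 4 to 7 with 1 left out) and mutant hearts 875 (1643 with no filter, 1924 by DESeq2, 1419 with the block, 4 with only those libraries, 74 to 1462 with 1 left out). The heart genotype by cohort test called 0, but 338 with no filter, 124 by DESeq2, 110 with the block and 0 to 71 with 1 left out. Low counts limit Ryr2 and Pln in skeletal muscle and Ryr1, Pvalb and Atp2a1 in heart.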
